A study of Mus musculus with 16 samples.

Results

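The gene models of tumour necrosis factor (Tnf), the lymphotoxins (Lta and Ltb) and their receptors (Tnfrsf1a, Tnfrsf1b and Ltbr) are described here as the deposited mouse annotation gives them. They were chosen by gene name, and all 6 were found, each as 1 protein-coding gene, among 50578 genes in all. The study followed bone marrow-derived macrophages, grown to day 7 in M-CSF (50 ng/ml) and kept without or with lipopolysaccharide (LPS), a bacterial cell wall component. Its 16 libraries were 6 of RNA-seq (3 untreated, 3 LPS) and 4 of ribosome profiling (2 untreated, 2 LPS), both from wild-type C57BL/6 mice, and 6 of RiboTag (2 untreated, 2 at 6 h of LPS, 2 at 24 h). All 4 ribosome profiling libraries carry the label CHX in their titles, those without LPS included. For that group, untreated therefore means only that no LPS was given. RiboTag cells carry an HA-tagged ribosomal protein switched on by LysM-Cre, a recombinase driven from the lysozyme promoter of myeloid cells. Their ribosome-bound RNA is pulled down with an antibody to HA. The file analysed holds gene models and no value for any library, so expression, its change with LPS and its replicate error were not analysed here, and every value below is a property of an annotation, with no test.

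TNF is made as a trimer in the cell membrane and can be cut free. Lymphotoxin alpha is secreted as a trimer of its own, or is held at the membrane together with lymphotoxin beta. TNF and the lymphotoxin alpha trimer bind both TNF receptors, TNFR1 (Tnfrsf1a) and TNFR2 (Tnfrsf1b), while the membrane lymphotoxin complex binds the lymphotoxin beta receptor (Ltbr). TNFR1 carries a death domain inside the cell, and TNFR2 and the lymphotoxin beta receptor bind TRAF proteins directly. In macrophages LPS is a classical inducer of Tnf, and lymphotoxin is best known from lymphocytes and from the development of lymph nodes.

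The 3 ligand genes lay side by side on chromosome 17, with no gene of any class between them. Positions are those of the deposited annotation, for which the submitters' processing notes name the build mm10. Ltb ran on the plus strand from 35194439 to 35196320, Tnf on the minus strand from 35199381 to 35202007 and Lta on the minus strand from 35203165 to 35205351. The whole locus, from the start of Ltb to the far end of Lta, was 10913 bases. Among 21903 runs of 3 consecutive protein-coding genes the median was 130483 bases, and 0.534% were shorter than the ligand locus. Exons of the 3 genes filled 41.6% of it, or 4538 bases.

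The gap between Tnf and Lta, which point the same way, was 1157 bases, and 18.6% of 21924 neighbouring protein-coding pairs had a smaller one. Among same-strand pairs alone 9.69% had a smaller one, and between the coding sequences the distance was 1899 bases. Ltb and Tnf point towards each other, so that their 3′ ends face across a gap of 3060 bases, and 25.6% of pairs had a smaller one. The median gap was 14519 bases. With only the 15949 pairs that have no gene of any class between them, as here, both shares rose. A smaller gap was then found in 25.58% of pairs for Tnf and Lta and in 34.97% for Ltb and Tnf. The median gap of those pairs was 7509 bases. Both gaps were thus below the median on either background, but less far down the ranking on the narrower one. Beyond the locus, Lst1, a leukocyte gene, lay 5999 bases from Ltb, and Nfkbil1, whose product resembles inhibitors of NF-kappaB, lay 14823 bases from Lta. The class I histocompatibility gene H2-D1 began 57378 bases after Lta.

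**Figure D1:**
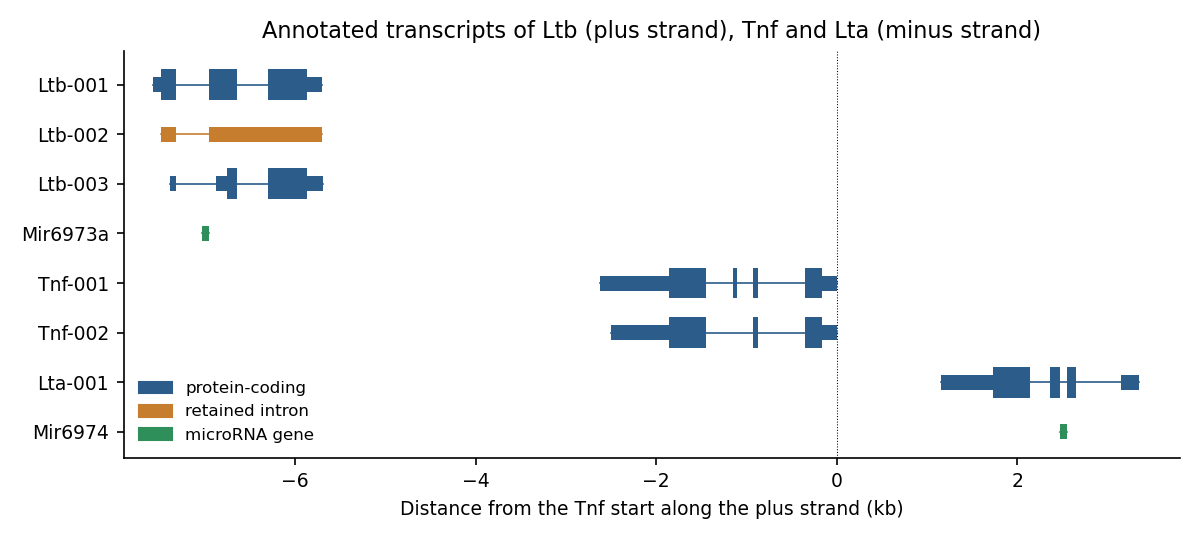
Annotated transcripts of Ltb, Tnf and Lta and the microRNA genes in their introns, plotted by distance in kb from the Tnf start along the plus strand. Tall blocks are coding bases, low blocks are other exon bases and lines are introns. Ltb and Tnf face each other across 3060 bases, and Tnf follows Lta after 1157 bases.

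Tnf had 2 transcripts, both complete and both at the best annotation support level, 1. Tnf-001 had 4 exons and 235 codons. Its coding exons held 186, 55, 48 and 416 bases, and the last of them carried 59.0% of the coding sequence. Tnf-002 left out exon 3, which is 48 bases or 16 codons long and covers bases 242 to 289 of the coding sequence. The reading frame was kept, giving 219 codons. Tnf-002 also ended 126 bases earlier, within the 3′ untranslated region. It had no exon base of its own and 1 junction of its own, whereas Tnf-001 had 177 bases and 2 junctions that Tnf-002 lacked. A read can therefore be assigned to Tnf-002 by position alone only where it crosses the junction that skips exon 3.

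Lta had 1 transcript, with 4 exons and 202 codons. Its first exon, of 193 bases, was wholly untranslated, so that an intron of 496 bases split the 5′ untranslated region. In the complete transcript with the longest coding sequence, Lta was the 1 gene of the 6 with such an intron, against 32% of the 21598 protein-coding genes with a complete coding sequence. In the same transcripts no member had an intron in the 3′ untranslated region, which 4.52% of those genes had. Among the other transcripts, Ltb-003 and Tnfrsf1a-003 had an intron in the 5′ untranslated region, and Tnfrsf1a-004 and Tnfrsf1b-002 had 3 and 1 in the 3′ untranslated region. The 3 coding exons of Lta held 96, 100 and 410 bases, and the last carried 67.7% of the coding sequence.

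Ltb had 3 transcripts. Ltb-001 had 306 codons in coding exons of 162, 316 and 440 bases, the last with 47.9% of the coding sequence. Ltb-003, at support level 5, the lowest, used another splice site for its first intron. Its start codon lay 363 bases into the coding sequence of Ltb-001 and in the same frame, which left 185 codons, 121 fewer. Ltb-002 had no coding sequence. It kept intron 2, of 338 bases, and began 1 base after the first base of the Ltb-001 start codon.

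An intron's phase is the number of bases of a codon that stand before it. The coding introns of Lta and Ltb were in phases 0 and 1, and those of Tnf in phases 0, 1 and 1. Without exon 3, Tnf-002 had phases 0 and 1, as in Lta and Ltb. The phases 0 and 1 were found in 14.9% of 1496 genes with 3 coding exons, and 0, 1 and 1 in 9.27% of 1770 genes with 4, so neither was rare. Among 18 genes of the TNF ligand superfamily, the 3 ligands included, 16 had the last coding intron in phase 1, against 33.8% of 18111 genes with an intron in the coding sequence. The other two were Eda and Tnfsf12, in phase 0.

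**Figure D2:**
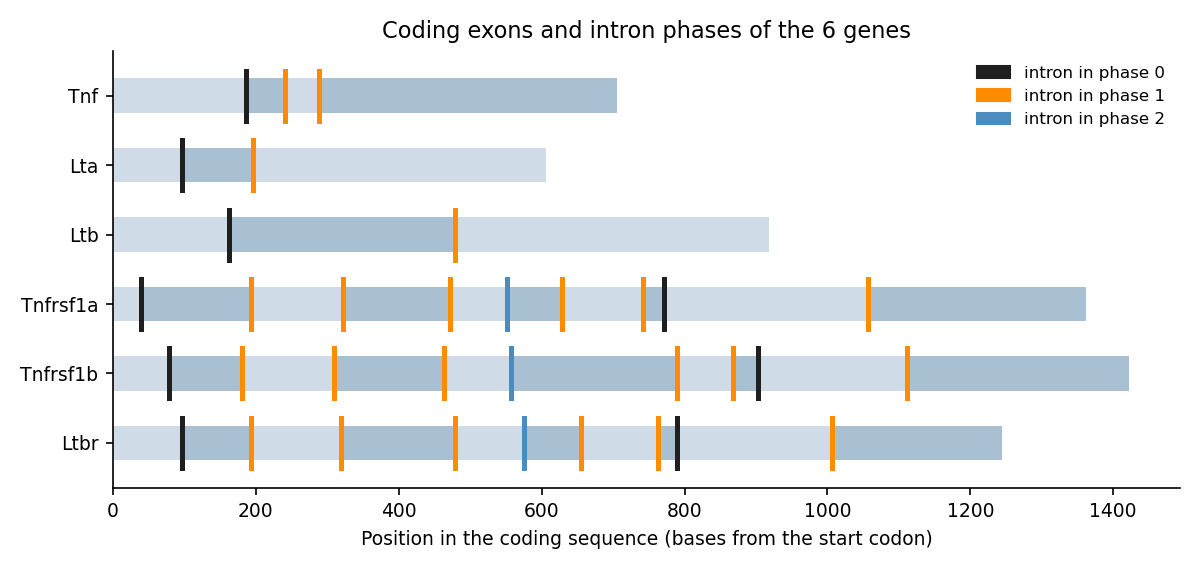
Coding exons of the 6 genes, as alternating light and dark blocks along the coding sequence in bases from the start codon, with a bar at each intron coloured by its phase. The 3 receptors have 10 coding exons each and the same 9 phases in the same order, and each ligand has a phase 0 intron followed by introns in phase 1.

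MicroRNA genes lay inside introns of Lta and Ltb, on the strand of the host, and no other gene overlapped a member's span. Mir6974 (chromosome 17, 35204475 to 35204557) covered all 83 bases of Lta intron 2 and no more. Of 2202 microRNA genes on the main chromosomes, 21 had both ends exactly on the ends of a protein-coding intron on the same strand, or 0.954%. These were 2.6% of the 809 microRNA genes that lay inside such an intron. The hairpin listed in RefSeq had the same ends. Mir6973a (35194972 to 35195049, 78 bases) closed on the last base of Ltb intron 1, with 288 bases of that intron before it. A 3′ end exactly on an intron's 3′ end was annotated for 208 microRNA genes, or 9.45%, and for 207 of the 809 inside such an intron, or 25.6%. The gene for the annotated microRNA and the host's intron thus share every base in Lta, and reads there cannot be told apart by position.

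These mature sequences are shown to place the microRNAs within the introns; they are from RefSeq (GRCm38.p6), 5′ to 3′, with the seed, bases 2 to 8, in capitals.
mmu-miR-6974-5p: gUGAGGCAgcaagagauugggggu
mmu-miR-6973a-5p: uACGGUGGgagggguggaguug
mmu-miR-6973a-3p: cACUCUAAcccuaccuacccau
The 5p sequence of miR-6974 begins on the first base of the Lta intron, and the 3p sequence of miR-6973a ends 4 bases before the end of the Ltb intron. The 3 seeds all differ, and each was held by 1 of the 1679 mature mouse sequences in the table, as were 86.6% of the 1398 different seeds there.

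The receptor genes were larger and lay apart from the ligands. Ltbr (minus strand, 125306571 to 125313885) and Tnfrsf1a (plus strand, 125349362 to 125362484) were both on chromosome 6, 35476 bases apart. Scnn1a, which encodes a subunit of the epithelial sodium channel, was the 1 protein-coding gene between them. Tnfrsf1a ended 175 bases from the 3′ end of Plekhg6, which points towards it, and 13.0% of neighbouring pairs had a smaller gap. Cd27, another TNF receptor superfamily gene, lay 69560 bases from Ltbr. Tnfrsf1b was on chromosome 4 (minus strand, 145213463 to 145246870), 20266 bases from Tnfrsf8, which encodes the receptor CD30. The span of Tnfrsf1b, 33408 bases, was the longest of the 6, and its first intron took 17617 bases of it. The first intron of Tnfrsf1a was 6762 bases and that of Ltbr was 103 bases. The median was 1324 over 185503 introns of any position, and first introns were not ranked apart. The 3 receptors thus carry a like number of codons (454, 474 and 415 for Tnfrsf1a, Tnfrsf1b and Ltbr) in spans of 13123, 33408 and 7315 bases.

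The coding sequences of the receptors were divided by introns in 1 order of phases. All 3 had 10 coding exons, and their 9 introns had the phases 0, 1, 1, 1, 2, 1, 1, 0 and 1 in that order. Of 886 genes with 10 coding exons, 5 had this series, or 0.564%. The other two were Tnfrsf11a, which encodes the receptor RANK, and Tnfrsf25, which encodes death receptor 3, so all 5 belong to the TNF receptor superfamily. Of the 27 genes of that superfamily with a complete coding sequence, 5 had 10 coding exons, and these were the same genes. TNFR1 has a death domain and TNFR2 and the lymphotoxin beta receptor have none, yet the series was the same.

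Exons 3 and 4, in the part that encodes the extracellular domain, were close in length in the 3 receptors. Exon 3 held 129 bases in Tnfrsf1a, 129 in Tnfrsf1b and 126 in Ltbr, and exon 4 held 150, 153 and 159. Exon 6 differed more, with 77 bases in Tnfrsf1a, 80 in Ltbr and 233 in Tnfrsf1b. Exon 8 was short in each, with 29, 35 and 26 bases. Of 157098 inner coding exons, 1.64% had at most 35 bases, a limit equal to the longest of these 3. That share is over exons, whereas exon 8 was the shortest inner exon of each receptor. In Tnfrsf11a and Tnfrsf25, which have the same phase series, coding exon 8 held 53 and 38 bases. The last exon of Tnfrsf1a, Tnfrsf1b and Ltbr carried 305, 311 and 239 coding bases.

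Of the 11 receptor transcripts, 3 were complete and coded for a full-length receptor, 1 for each gene. Tnfrsf1a had 6 transcripts with 6 different 5′ ends. Tnfrsf1a-003 and Tnfrsf1a-007 began 272 and 361 bases before Tnfrsf1a-001 with first exons that overlap each other and no exon of Tnfrsf1a-001, and the annotation marks both as incomplete at the 3′ end. Tnfrsf1a-006, incomplete at its 5′ end, kept intron 9, of 102 bases or 34 codons, within its reading frame. Tnfrsf1a-004, also marked as incomplete at its 5′ end, held an extra exon of 116 bases. It was labelled as a target of nonsense-mediated decay, the pathway that destroys messages with an early stop codon. Its stop codon lay 285 exon bases before the last junction. Tnfrsf1a-005, labelled as retaining an intron, had 70 bases of its own.

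Tnfrsf1b had 2 transcripts. Tnfrsf1b-002 used a splice donor inside exon 2, so that it kept 32 of the exon's 103 bases and left out 71, which is not a multiple of a codon. Its coding sequence stopped after 55 codons, 71 exon bases before the last junction, and it was labelled for nonsense-mediated decay. Its 4 exons held no base of their own, and 1 junction was its own. Ltbr had 1 coding transcript and 2 short ones of 450 and 215 bases, labelled as retaining introns, with 165 and 82 bases of their own. Over all 6 genes, 12 of 17 transcripts had a coding sequence and 9 of these were complete.

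**Figure D3:**
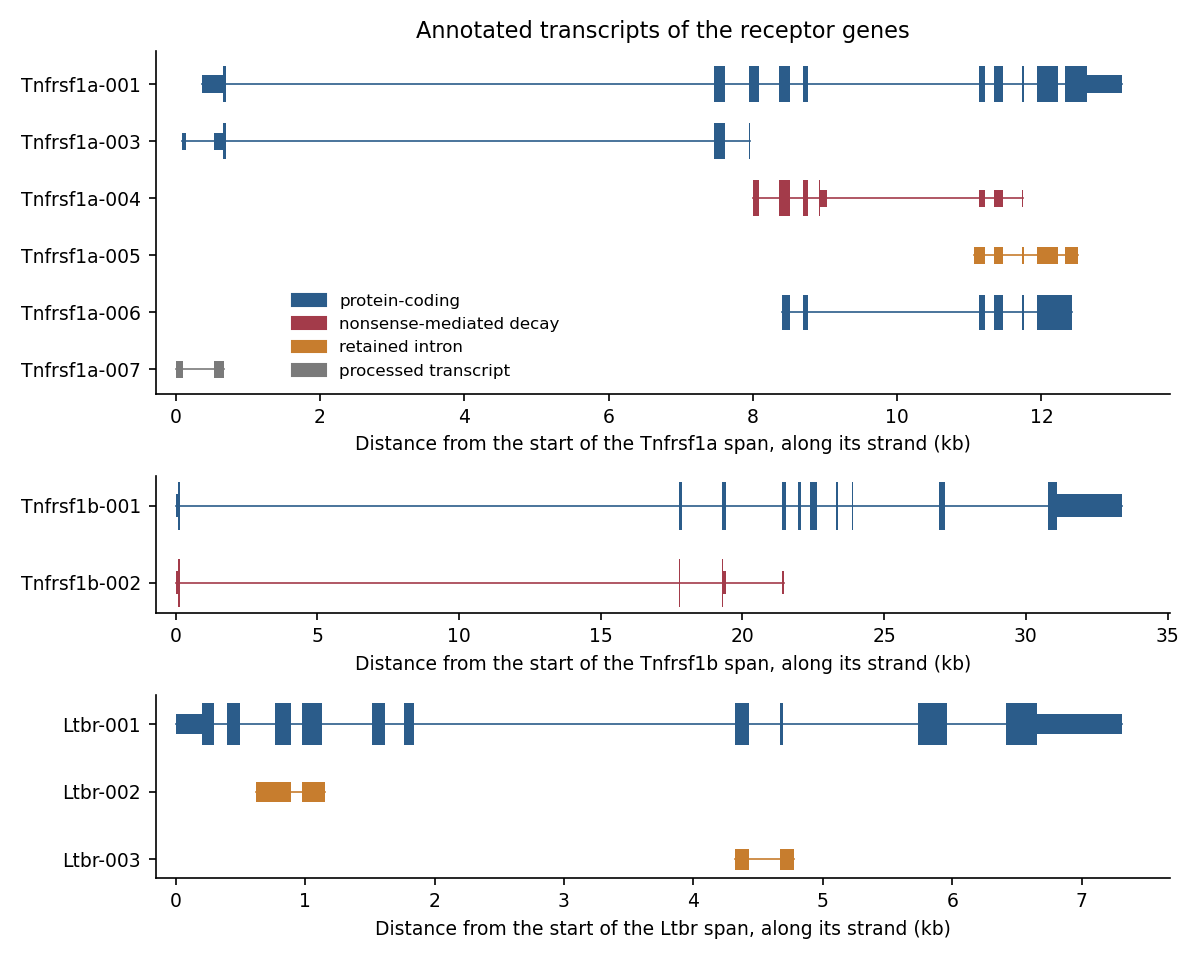
Annotated transcripts of the 3 receptor genes, plotted in kb from the start of each gene's span along its own strand, coloured by the label of the transcript, with tall blocks for coding bases and low blocks for other exon bases. Tnfrsf1a has 6 transcripts, Ltbr 3 and Tnfrsf1b 2, and 1 of each gene's runs the full length of the receptor's coding sequence.

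No member shared an exon base with another gene model on the same strand, which 11% of 22159 protein-coding genes did. On either strand the count for the 6 genes was also 0, against 26.4%. Position alone therefore gives exon reads of the 6 genes to a single gene model.

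The untranslated regions of the 6 genes spanned a wide range of lengths. The 3′ untranslated region was 764 bases in Tnf, longer than in 55.6% of 21598 genes, with a median of 608.5. That of Lta was 572 bases, that of Ltb 156, that of Tnfrsf1a 490 and that of Ltbr 659. Tnfrsf1b had the longest, 2324 bases, longer than in 86.4% of genes, and it made up 60.9% of its spliced length. It made up 46.6% of the Tnf transcript and 13.4% of the Ltb transcript. Hence 3 of 6 members lay above the median of these genes. With only genes that have an intron as background, Ltbr went from percentile 51.8 to 47.7, below the median. The 3′ untranslated region of Tnf is known for AU-rich elements that control the life of the message and its translation. Its letters were not analysed here, and by length it was near the middle of all genes.

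The 5′ untranslated region was 167 bases in Tnf, 202 in Lta and 83 in Ltb. Among the receptors it was 301 bases in Tnfrsf1a, 69 in Tnfrsf1b and 200 in Ltbr. The median was 134 bases, and 4 of 6 members were above it. Tnfrsf1a had the longest, longer than in 79.4% of genes, and Tnfrsf1b, with the longest 3′ region, had the shortest 5′ region of the 6.

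**Figure D4:**
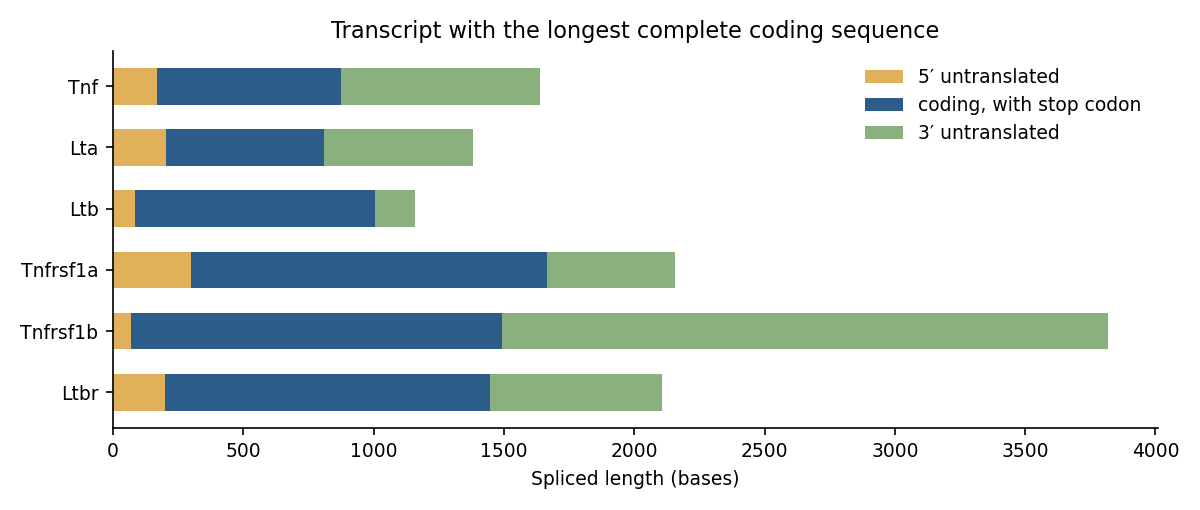
Spliced length in bases of the complete transcript with the longest coding sequence of each gene, divided into 5′ untranslated, coding and 3′ untranslated bases. Tnfrsf1b has 2324 bases of 3′ untranslated region, and Ltb has 156.

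Promoter windows of RefSeq (GRCm38.p6), from 250 bases before to 50 after the start, were matched by symbol for all 6 genes. For 5 of 6 their start was that of the complete deposited transcript with the longest coding sequence. For Ltb it lay 68 bases further in. Tnfrsf1a has 6 annotated 5′ ends, and its window stood at the start of Tnfrsf1a-001. Tnfrsf1a-003 and Tnfrsf1a-007 begin before that window, so its values do not cover their starts. TATAAA, the letters bound by the TATA-binding protein, stood in 2 of the 6 windows, Tnf and Lta, against 13.6% of 32851 windows searched on both strands. In Tnf it lay 29 to 24 bases before the start, and in Lta 167 to 162 bases before it. RefSeq's outer 5′ end of Lta lay 227 bases further out than the start used here, so the Lta match falls within RefSeq's Lta span. The NF-kappaB consensus, bound by the transcription factors that LPS and TNF activate, stood in 1 window, that of Ltb, against 8.46%. It was on the strand opposite to the gene and ended 10 bases before the deposited Ltb start. GGGCGG, an Sp1 motif, was found on the opposite strand in Tnf, Tnfrsf1b and Ltbr, 3 of 6 against 35.7%. TGACTCA, an AP-1 motif, and TGACGTCA, a cyclic AMP response element, were in no member's window, against 5.2% and 1.79%. A match shows that the letters are there, not that a factor binds, and sites further from the start were not searched.

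Pieces of 30 bases before the start are shown for the ligand genes, where a motif differs in kind or place, on the gene's strand 5′ to 3′ with the motif in capitals.
Tnf, minus strand of chr17:35202019-35202048: ttccccaagggcTATAAAggcggccgtctg
Lta, minus strand of chr17:35205501-35205530: gtgcagaagtgaTATAAAccatcactcttc
Ltb, plus strand of chr17:35194409-35194438: gaagggtgttcGGAAAGTCCCcgggcaggg
The capitals in Ltb are the NF-kappaB consensus read on the opposite strand. The windows held 57.0% to 70.0% G and C, lowest in Tnfrsf1a and highest in Ltbr.

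The other genes of the pathway were all present. Of 52 listed names, 51 were found by symbol, and Ncr3 was found through a synonym as the pseudogene Ncr3-ps, itself on the list. The 4 genes of ligands and processing had 3′ untranslated regions of 850 to 3604 bases, all above the median. They are Tnfsf14 (LIGHT, a further ligand of the lymphotoxin beta receptor; 1019 bases), Adam17 (the protease that cuts TNF free; 1767), Rhbdf2 (iRhom2, which brings that protease to the cell surface; 850) and Timp3 (which inhibits it; 3604). Tnfrsf14, a second receptor of LIGHT, had 34 bases.

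Of 10 genes for receptor adaptors and the death arm, 4 were above the median. Tradd, the adaptor of the TNFR1 death domain, had 699 bases, Traf2 had 544, Traf3, a brake on the arm of NF-kappaB used by the lymphotoxin beta receptor, had 5088 and Traf5 had 0. For Traf5 and Casp8 the chosen transcript ended with its stop codon, so a length of 0 is a property of the model. All 3 genes of the linear ubiquitin complex (Rnf31, Rbck1 and Sharpin, with 108, 500 and 158 bases) were below the median. All 6 genes listed under kinases, which include partner genes, were above it. In that list, Map3k7 (TAK1) had 3786 bases, its partner gene Tab2 1782, Map3k14 (NIK, the kinase downstream of the lymphotoxin beta receptor) 1263 and Chuk (IKK alpha) 1176.

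The NF-kappaB genes had 196 to 714 bases, with 2 of 5 above the median. Rela had 714, Nfkb1 700, Relb 336 and Nfkb2 196. Of the brakes, 3 of 4 were above it, with 1821 bases in Tnfaip3 (A20), 4932 in Cyld, 348 in Otulin and 750 in Tnip1. All 6 genes for RNA-binding regulators were above it. Zfp36 (tristetraprolin, which binds the AU-rich elements of Tnf and speeds the decay of the message) had 774 bases, close to the 764 of Tnf itself, and its relatives Zfp36l1 and Zfp36l2 had 1829 and 1822. Elavl1 (HuR) had 4818. Over the 39 signalling and RNA-binding genes the median was 850 bases and 25 lay above the median of all genes. The pathway counts were not repeated with only genes that have an intron as background. On that background the 659 bases of Ltbr were at percentile 47.7 and the 764 of Tnf at 51.8. Tradd, Rela, Nfkb1 and Tnip1 lie between these lengths, so their side of that median was not determined.

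**Figure D5:**
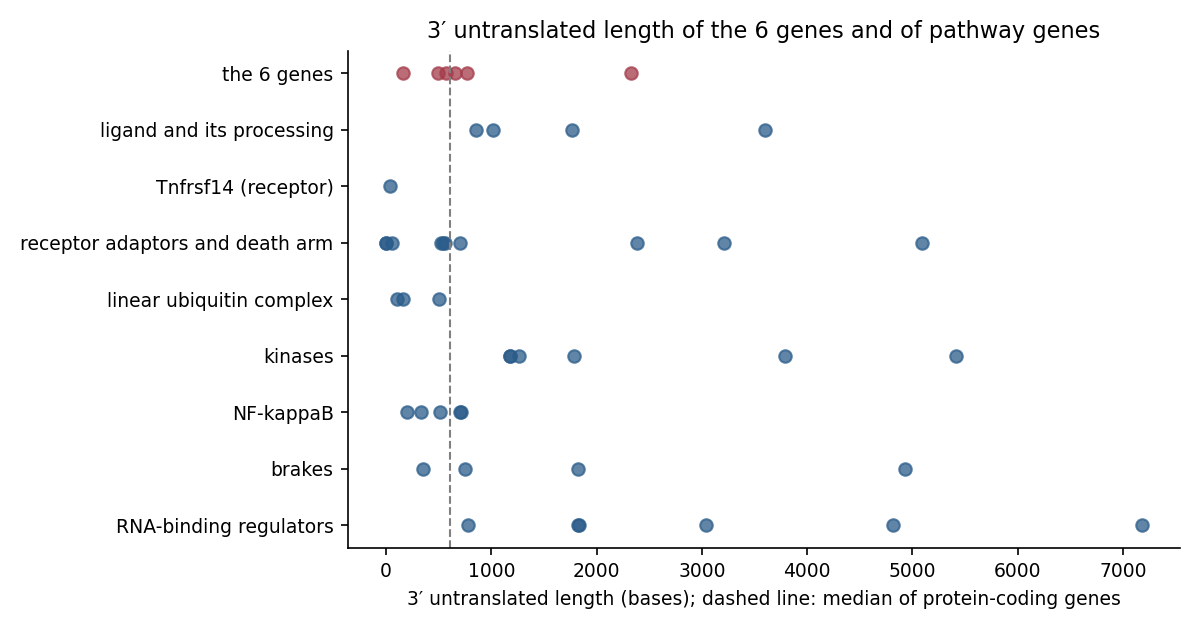
Length in bases of the 3′ untranslated region of the 6 genes (top row) and of 39 pathway genes by list, with a dashed line at the median of all protein-coding genes, 608.5 bases. The 6 genes run from 156 to 2324 bases, and all points in the rows of the kinases list and of the RNA-binding regulators are right of the line.

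Around the loci, the 9 listed names near the ligand genes stood for 8 gene models, of which 7 were coding genes with a complete coding sequence, and 2 of these had a 3′ untranslated region above the median. Ddx39b, an RNA helicase, had 191 bases, Atp6v1g2 969, Nfkbil1 215 and Lst1 84. The 4 around the receptor pair, Cd27, Scnn1a, Plekhg6 and Vamp1, had 688, 855, 198 and 739 bases.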

How the data were processed

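The file analysed is the authors' deposited gene annotation, with Ensembl models and added ones by its source field and an empty score field in all 1544831 lines. TopHat2 2.1.1 and mm10 are named in the submitters' processing notes; for the making of the annotation, no step is given in the sources used here. From its 115521 transcripts, spliced length was taken from the longest transcript and coding and untranslated lengths from the complete transcript with the longest coding sequence. A percentile is the share of genes with a smaller value. Neighbours are protein-coding genes consecutive by start. Sharing means at least 1 exon base. TNF superfamily genes were taken by symbol (Tnfsf, Tnfrsf and older names such as Fasl and Cd27). Analyses ran in Python 3.11.15 with pandas 2.3.3, after tests on gene models made with known answers. Named genes are the 6 members, up to 4 genes of each of 10 lists in list order, and the neighbours by position; Casp8, Ncr3, Ncr3-ps, H2-D1, Mir6974, Mir6973a, Tnfrsf8, Tnfrsf11a, Tnfrsf25, Eda, Tnfsf12, Fasl, Cd40lg, Cd70 and Nfia were named after their values were seen. Members and lists were chosen with earlier results of these data known. Alternatives covered the choice of transcript, background genes, gene ends, strand, window and symbol matching. A further mature microRNA sequence is not reported here. Depth per library was not analysed here.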

Additional observations from a re-analysis of the deposited data

How the results depend on the processing

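Of 59 alternative values for 51 results, 50 stayed within 1.5 times the reported value and 9 moved further. Measured between coding sequences, the gap between Tnf and Lta was 1899 bases in place of 1157, and among same-strand pairs alone its percentile was 9.69 in place of 18.6. Searched on the gene's strand only, 0 members held the NF-kappaB consensus and 0 held GGGCGG. With the longest region of any transcript the 5′ untranslated region of Ltb was 173 bases, and with coding transcripts only Ltbr had 1. Counting all complete transcripts, Tnf, Ltb and Tnfrsf1b each had 2 phase series. Chosen after seeing the data, a search of any complete transcript found the receptors' phase series in 6 genes, the sixth being Nfia, which is no TNF receptor gene. Allowing 2 bases at each end left 21 microRNA genes that fill an intron, and 92.9% of ligand genes, without Fasl, Cd40lg, Cd70 and Eda, had the last coding intron in phase 1. Protein identity was not run, since no protein sequences were used here. No paired analysis was possible because the file gives gene models only. Lengths and ends rest on 1 annotation and carry no error.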

Other observations

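RefSeq's table for GRCm38.p6 gave the same outer ends as the deposited annotation for Ltbr and differed at 1 or both ends for the other 5 members. The 3′ end of Tnfrsf1b lay 1095 bases further out in RefSeq. The 3′ end of Tnf lay 14 bases further out, that of Ltb 15 bases further in and that of Tnfrsf1a 1 base further in. At the 5′ end, RefSeq began Lta 227 bases further out, with 1 of its 2 Lta transcripts curated, and Tnfrsf1a 361 bases further in, at the start of Tnfrsf1a-001.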
